A study of Mus musculus with 24 samples.

Results

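The comparison followed here is the passage from neuronal progenitors (NP) to terminal neurons (TN) in mouse cells that carry a working copy of Rest. It rests on 6 of the 24 arrays in the series: the 3 arrays of TN labelled RESThet (heterozygous for the REST knock-out), set against the 3 arrays of NP labelled RESTwt, all of the strain Black Agouti 129. They belong to a table of 18 arrays in 6 groups of 3, which also holds ES cells labelled RESTwt or RESTko (REST knock-out) and RESTko cells at the NP and TN stages. A second table of 6 arrays, on another Affymetrix platform, holds cells labelled wildtype, of the strain given as mixed 129Sv-C57Bl/6, with 2 arrays at each of the 3 stages. All cells were embryonic stem cell cultures differentiated by a cited published protocol, with no drug or dose compared.

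Genotype changed together with stage: the neurons had lost 1 allele of Rest and the progenitors had lost none. The number that opens the sample title changed too, from 1 at NP to 2 at TN, as it did for the RESTko cells; in the mixed strain it was 2 at both stages. A difference due to the stage, to the allele or to whatever that number marks cannot be told apart within these 6 arrays. For that reason directions are also given in the mixed-strain arrays, in which NP and TN are both wildtype, and in the RESTko arrays, in which both stages carry the same genotype. The labels call the arrays biological replicates without naming separate cultures or clones, so p-values measure the spread between these arrays, which may be technical.

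In this protocol, ES cells are grown as aggregates and exposed to retinoic acid, which turns them into dividing progenitors resembling radial glia. When dissociated and plated, the progenitors leave the cell cycle and become neurons, most of them using glutamate. REST is a zinc-finger repressor that binds a DNA motif called RE1 near many neuronal genes and recruits corepressors, and its level is known to drop as neurons form. Neurons then assemble axons, synapses and ion channels, and exchange several general subunits of chromatin and splicing machinery for neuronal ones.

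The values are log2 signals as deposited, where a difference of 1 is a 2-fold change. Each gene is represented by its brightest probe. A gene was called when limma's moderated test gave an adjusted p under 0.05 over all 19938 genes and the difference reached 2-fold; "rose" and "fell" are used only of called genes. The 3 NP arrays correlated with each other at r between 0.992 and 0.996 across genes and the 3 TN arrays at 0.995, and arrays of the 2 stages at 0.854 to 0.884. The deposited scale moved between stages: the median over all genes was higher by 0.14 at TN, against -0.07 after quantile normalization over all arrays. The bright end of the deposited scale moved down instead. The top percentile of probe signals began at 11.72 to 11.76 in NP RESTwt arrays and 11.14 to 11.16 in TN RESThet arrays. Medians of gene groups are to be read against the median of all genes, which does not follow this change in bright genes.

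Across all genes, 4760 were called, 23.9% of those tested. Of these, 2816 (14.1%) rose and 1944 (9.75%) fell; with the adjusted p alone, 14570 (73.1%) passed. Without the fold limit the groups' arrays did not overlap for 73.6% of genes, 43.7% higher and 29.9% lower. The balance of higher and lower calls depended on the scaling: it was 2473 to 2533 after quantile normalization and 2291 to 2706 with each array centred on its median. By size, 208 genes rose and 26 fell by at least 16-fold. For each called gene named below, the 3 TN arrays lay wholly to one side of the 3 NP arrays. These genes were picked mostly for large changes in the same arrays, so this separation is not separate evidence.

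The signal of Rest itself does not check the genotype labels. It read 7.48, 7.51 and 7.46 in the 3 NP arrays and 7.02, 7.01 and 7.07 in the 3 TN arrays, a difference of -0.45 (SE 0.07, adjusted p = 1.24e-05). The groups did not overlap, but the change was under 2-fold and Rest was not called. The RESTko arrays gave a like signal, with means of 7.47 at NP and 7.37 at TN, so this probe does not separate the genotypes. In ES RESTwt cells the mean was 8.96, and in the mixed strain Rest differed between NP and TN by -2.79, a fall that was called.

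Markers of the labelled cell types went the way the labels say. Of 30 progenitor and radial glia genes, 21 fell and 2 rose from NP to TN, and of 25 pan-neuronal genes 24 rose and none fell. The averaged pan-neuronal signal was 7.56 to 8.21 in the NP arrays and 10.15 to 10.27 in the TN arrays. Among the progenitors, array a had the highest average and array b the lowest. Array b of NP RESTwt also had the highest averages of the mitosis genes (8.82) and of the endoderm and epithelial genes (7.18). Array a of TN RESThet held more signal of mitosis genes (6.25, against 5.76 and 5.88) and of pluripotency genes (5.64, against 4.60 and 5.01) than the other TN arrays. In whole cultures such as these, fewer cells of a type and less RNA per cell cannot be told apart.

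**Figure D1:**
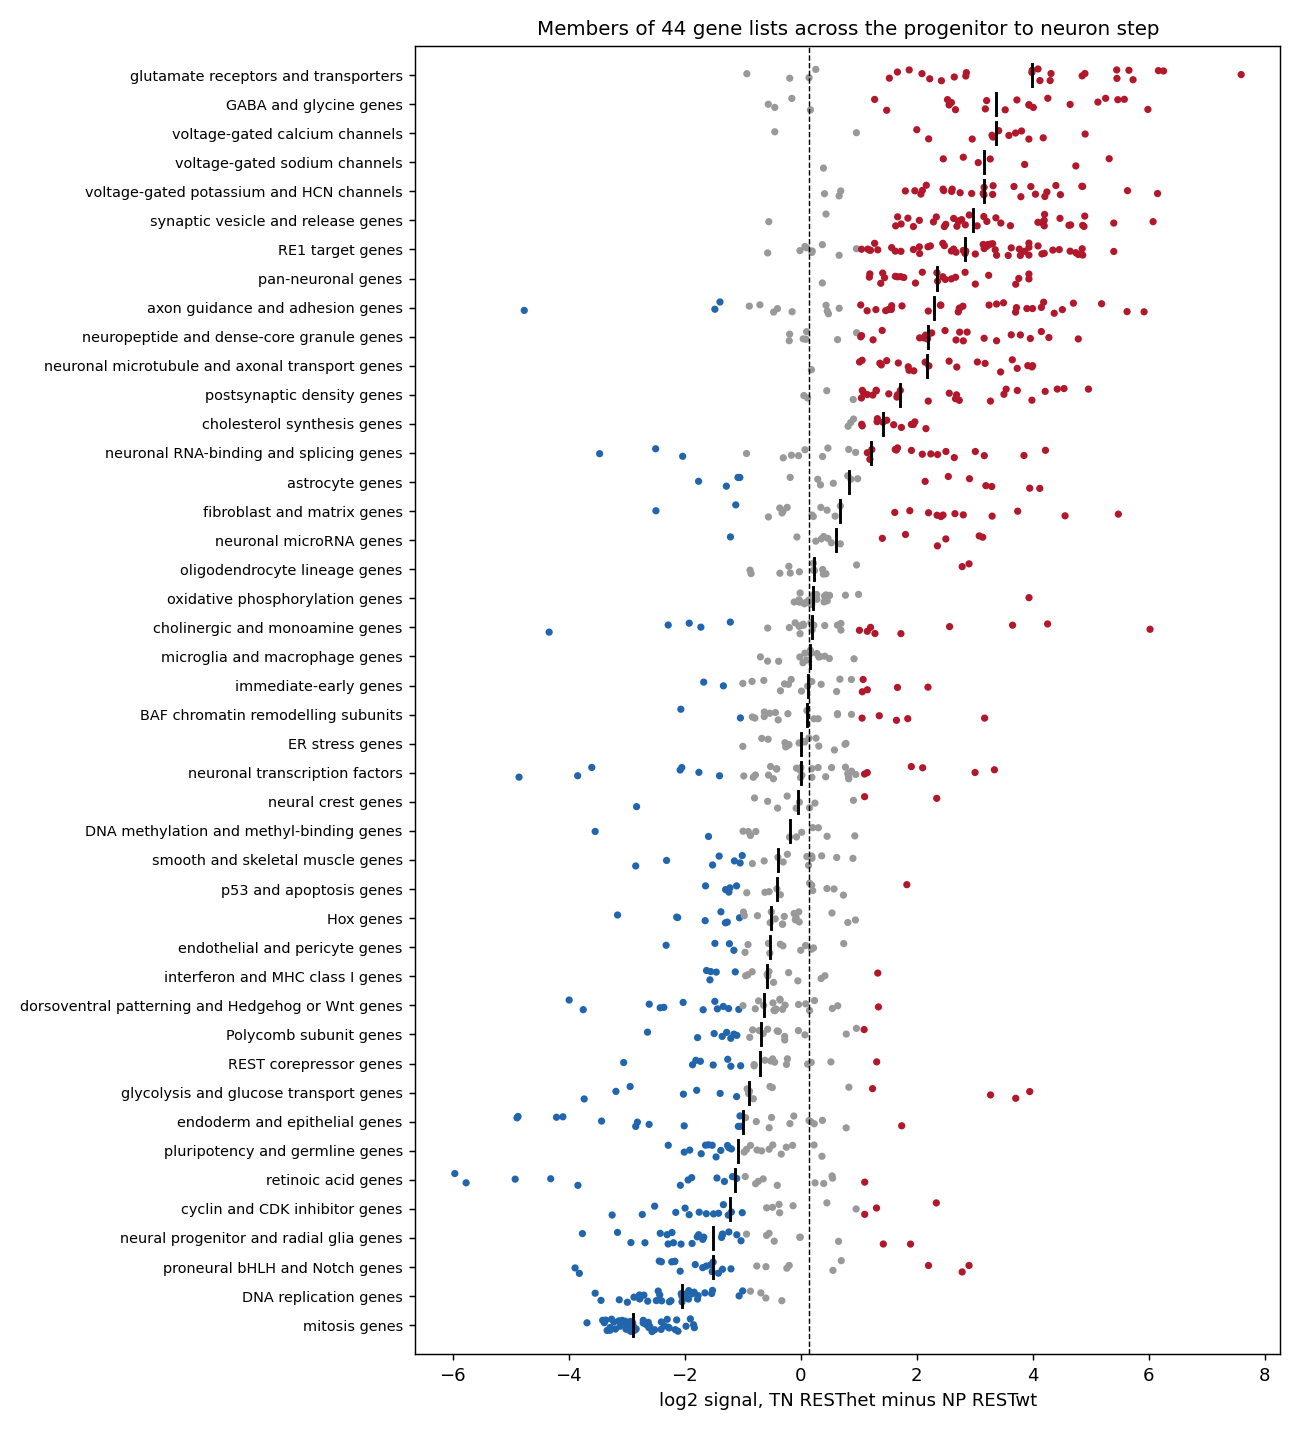
The log2 difference of TN RESThet minus NP RESTwt (horizontal axis) is plotted for each measured member of 44 gene lists (vertical axis), with called genes in red (higher) and blue (lower), other genes in grey, a black bar at each list's median and a dashed line at the median of all genes, 0.14. Lists of neurotransmitter receptors and ion channels lie at the top, with medians of 3 or more for glutamate, GABA and channel genes, and mitosis and DNA replication genes at the bottom, with medians of -2.88 and -2.05.

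The 12 steepest rises included a transporter, receptors, channels and adhesion molecules of neurons. Slc17a6, which encodes the vesicular glutamate transporter VGLUT2, read 3.17, 2.84 and 2.997 in NP and 10.16, 10.78 and 10.85 in TN. The difference of 7.59 (SE 0.17, adjusted p = 9.36e-17) corresponds to 193-fold. Its NP values lay under the lower quartile of those arrays, 3.47 to 3.53. So did those of other genes named here, such as Dpp10, Htr2c, Vstm2a, Scn1a, Grin2a and Mir137. Among genes that fell, the TN values of Stra8 and Neurod4 lay under the lower quartile of the TN arrays, 3.73 to 3.75. No detection call was used here, so such folds are those of the deposited signals. For Slc17a6, ES RESTwt cells averaged 3.58. Dpp10, an auxiliary subunit of voltage-gated potassium channels, read 2.86, 2.86 and 2.83 and then 9.41, 9.36 and 9.38, a 92.8-fold rise. Ncam2, a cell adhesion molecule of axons, went from 4.13, 3.51 and 3.79 to 10.08, 10.15 and 10.06. Vsnl1, a neuronal calcium sensor, went from 4.45, 4.38 and 4.41 to 10.50, 10.48 and 10.88. The arrays of each stage lay close together for these genes and far from those of the other stage. Kcnk9, Tmem130, Sv2c, Htr2c, Dscam and Vstm2a, with Grm3 and Grm7, completed the 12 largest rises, between 63.5-fold and 71.1-fold for the first 6. All 12 also rose from NP to TN in the RESTko arrays, by 5.62 to 6.90 on the log2 scale (12.8% of all genes rose in that step), and the 11 measured in the mixed strain rose there too (13.5% of all genes did).

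Glutamate receptors and transporters had the highest median difference of the 44 lists, 3.99, or 3.85 above the median of all genes. Of 28 measured members, 24 rose and none fell. Some of the largest changes were in metabotropic receptors. Grm3 read 3.63, 3.48 and 3.57 in NP and 9.73, 10.10 and 9.62 in TN, a difference of 6.26 (SE 0.13, adjusted p = 2.38e-17). Grm7 read 3.66, 3.24 and 3.39 and then 9.54, 9.69 and 9.55, a 71.9-fold rise. Grm5 read 4.49, 4.05 and 4.43 and then 10.08, 9.99 and 10.09, a 53.1-fold rise. The NMDA receptor subunit Grin2a rose 28.9-fold, from 3.25, 3.32 and 3.46 to 8.11, 8.34 and 8.14; in the mixed strain it differed by 0.20 and was not called.

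Receptors and transporters of the inhibitory transmitters rose as well: 20 of 24 GABA and glycine genes were higher and none lower, with a median of 3.37. Glra2, a glycine receptor subunit of immature neurons, read 3.97, 3.14 and 3.76 in NP and 9.72, 9.63 and 9.47 in TN, a 63.4-fold rise (adjusted p = 3.95e-15). The GABA-A receptor subunits Gabra2 and Gabra5 rose 47.8-fold and 38.2-fold, and the GABA-B subunit Gabbr2 rose 44.2-fold. Slc12a5, the chloride exporter KCC2 that sets the polarity of GABA responses, read 6.35, 5.68 and 6.21 and then 10.30, 10.40 and 10.33. Slc12a2, the importer NKCC1 with the opposite effect on chloride, read 8.43, 8.54 and 8.55 and then 8.38, 8.44 and 8.23, a difference of -0.15 (SE 0.08, adjusted p = 0.0992). The exporter thus rose 19.2-fold, and the importer did not pass the test.

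Genes of the other transmitter systems were divided. Of 29 cholinergic and monoamine genes, 9 rose and 5 fell, and their median of 0.20 turned to -0.0417 after quantile normalization. The serotonin receptor Htr2c read 3.16, 3.21 and 3.08 in NP and 9.24, 9.32 and 8.96 in TN, a 65.0-fold rise. Htr2a, a related receptor, rose 12.6-fold. Ache, the enzyme that degrades acetylcholine, rose 19.11-fold, from 5.07, 4.502 and 4.63 to 8.72, 9.23 and 9.03. In the opposite direction, the nicotinic receptor subunit Chrna3 read 8.70, 8.18 and 8.56 in NP and 4.07, 4.29 and 4.06 in TN, a 20.2-fold fall. The list therefore has high and low members and no common direction.

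Most voltage-gated channel genes rose. Of 31 potassium and HCN channel genes 28 rose, of 14 calcium channel genes 12 rose and of 8 sodium channel genes 7 rose, with none lower in any of the 3 lists and medians of 3.16, 3.36 and 3.16. Scn1a, a pore subunit of sodium channels, read 3.12, 3.05 and 3.20 in NP and 8.54, 8.62 and 8.16 in TN, a 39.9-fold rise. Scn2a, the pore subunit of early axons, read 6.52, 6.04 and 6.10 in NP and rose 14.5-fold. Scn3b and Scn8a rose 26.8-fold and 9.63-fold. Among potassium channels, Kcnk9, which carries a leak current, read 4.45, 4.44 and 4.60 and then 10.74, 10.76 and 10.45. Kcnd2, the A-type channel subunit to which Dpp10 binds, read 5.22, 4.26 and 4.22 and then 10.13, 10.25 and 10.22. In both genes the arrays within a stage lay far closer together than the stages. Kcnb2 and Kcna4 rose 29.0-fold and 28.8-fold. Of the calcium channels, Cacna1e rose 29.9-fold, Cacna1b (the N-type channel of nerve terminals) 15.3-fold and Cacna1d 14.0-fold. Cacna2d1, an auxiliary subunit, read 4.84, 5.01 and 5.13 and then 8.39, 9.79 and 9.34, with TN array a well under the other 2.

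Genes of both sides of the synapse rose. Of 38 synaptic vesicle and release genes 36 rose, with a median of 2.97, and of 29 postsynaptic density genes 25 rose, with a median of 1.72; none fell in either list. Sv2c, a vesicle glycoprotein, read 4.42, 3.89 and 4.03 in NP and 10.07, 10.34 and 10.16 in TN, a 67.4-fold rise. Cplx1, a complexin that controls vesicle fusion, read 5.27, 5.07 and 5.08 and then 10.51, 10.52 and 10.58, a difference of 5.40 (SE 0.08, adjusted p = 1.34e-18). Amph and Syn2, of vesicle recycling and clustering, rose 29.8-fold and 29.5-fold. On the postsynaptic side, the synaptic adhesion genes Lrrc4c, Lrrtm2 and Nlgn1 rose 31.1-fold, 23.3-fold and 21.5-fold. The scaffold gene Dlg2 rose 18.6-fold. Within the mixed-strain arrays, 36 of 38 vesicle genes and 16 of 27 postsynaptic genes rose, against 13.5% of all genes.

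Most general neuronal and cytoskeletal genes rose. The median difference was 2.35 for the 25 pan-neuronal genes and 2.18 for the 22 genes of neuronal microtubules and axonal transport, of which 21 rose. Snap25, a membrane fusion protein, read 7.04, 6.24 and 6.87 in NP and 10.61, 10.63 and 10.72 in TN. Mapt, which encodes tau, read 6.63, 5.66 and 6.26 and then 9.87, 9.93 and 10.02. NP array b was the lowest of the 3 progenitor arrays in both. L1cam and Eno2 rose 15.3-fold and 13.1-fold, and Kif1a, the motor of synaptic vesicle precursors, 13.3-fold. Dclk1, a microtubule-binding kinase, read 7.02, 5.94 and 6.78 and then 10.58, 10.60 and 10.55. Dync1i1 rose 15.1-fold. Spock1 rose 15.9-fold, and is named here without a claim that it acts on microtubules.

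Of 42 axon guidance and adhesion genes, 30 rose and 3 fell (median 2.30). Cntn1, a contactin of axons, read 5.65, 4.41 and 4.85 in NP and 10.77, 11.06 and 10.85 in TN, a 60.6-fold rise. Cntnap5a and Ntm rose 49.4-fold and 36.4-fold. The main exception was Robo3, the receptor that lets commissural axons cross the midline before it is shut off, which read 9.04, 7.86 and 8.71 and then 3.98, 3.56 and 3.77, a 27.2-fold fall. In the mixed strain Robo3 fell by 1.25 on the log2 scale. Of 30 neuropeptide and dense-core granule genes, 23 rose and none fell (median 2.19). Scg2, a granin of these vesicles, read 4.06, 3.85 and 3.85 and then 8.82, 8.75 and 8.55. The peptide precursors Tac1 and Penk rose 19.4-fold and 15.6-fold, and Nxph1, a secreted ligand of neurexins, 17.7-fold.

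**Figure D2:**
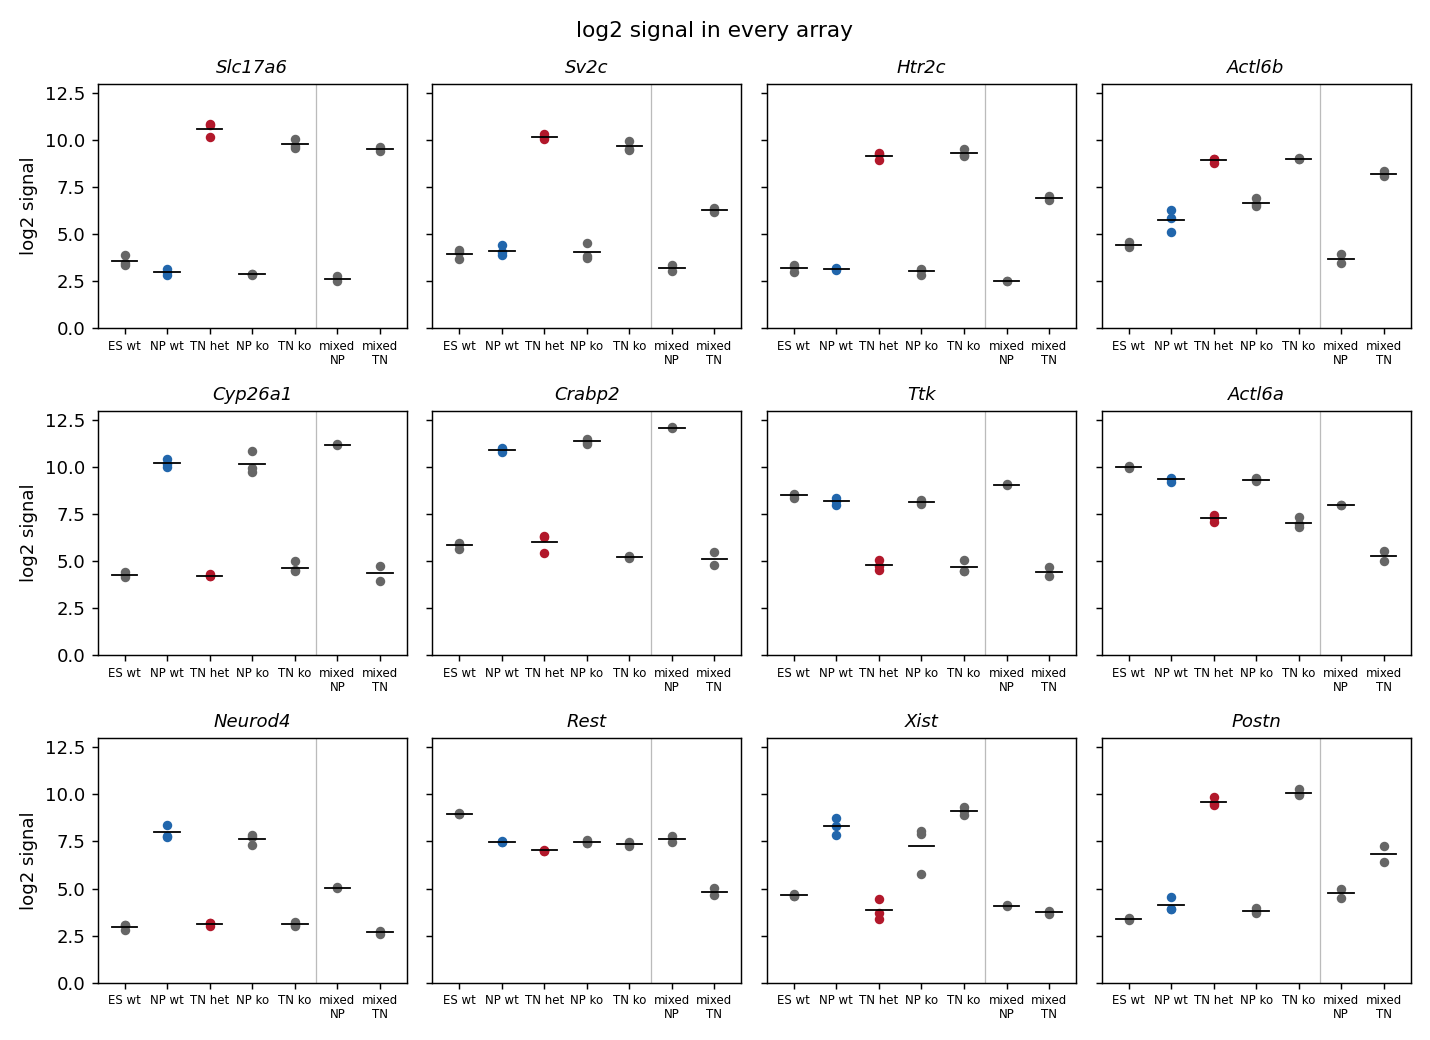
The log2 signal of 12 genes is plotted for every array (points) with the group mean (bar); NP RESTwt is blue, TN RESThet red, other groups grey, and the vertical line separates the mixed-strain arrays, which lie on another platform and have their own scale. Slc17a6, Sv2c, Htr2c, Actl6b and Postn rise and Cyp26a1, Crabp2, Ttk, Actl6a and Neurod4 fall from NP to TN in every pair of groups, Rest moves by under 2-fold in the larger table, and Xist falls from 8.32 to 3.84 where it rises from 7.25 to 9.11 in RESTko.

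Neuronal transcription factors had no common direction. Of 37 neuronal transcription factors, 6 rose (16.2%, near the 14.1% of all genes) and 7 fell (18.9%, against 9.75%), and the median was 0.00, or -0.14 relative to all genes. Neurod4, a factor of newly forming neurons, read 8.37, 7.76 and 7.80 in NP and 3.03, 3.16 and 3.17 in TN, a 29.0-fold fall. Nhlh1 and Neurod1, also active in newborn neurons, fell 14.4-fold and 12.2-fold. Myt1l, a repressor of non-neuronal genes, rose 10.1-fold, from 6.76, 5.30 and 5.71 to 9.27, 9.20 and 9.31. The count that rose was 9 without NP array a and 4 without NP array b. In the mixed strain 12 of the 37 rose and 8 fell, against 13.5% and 16.2% of all genes, with a median of 0.04. Of 26 proneural and Notch genes, 17 fell and 3 rose (median -1.52). Neurog1, a proneural factor, fell 14.8-fold, and Id3, an inhibitor of such factors, fell 14.1-fold. The oligodendrocyte lineage factors Olig1 and Olig2 went the other way, by 7.47-fold and 6.88-fold, with TN array c above the other 2: Olig2 read 6.91, 6.88 and 7.95 in TN, after 4.40, 4.80 and 4.18 in NP.

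Most progenitor genes fell, as counted above. The 30 progenitor and radial glia genes had a median of -1.52. Pax3, a dorsal patterning factor, read 9.05, 8.85 and 9.30 in NP and 5.17, 5.21 and 5.52 in TN, a 13.6-fold fall. Pax6, the usual marker of these progenitors, read 8.56, 8.88 and 8.83 and then 5.68, 5.34 and 5.76, an 8.94-fold fall. Pax7 fell 6.44-fold. Among 31 patterning, Hedgehog and Wnt genes, 12 fell and 1 rose; the roof plate signal Wnt1 fell 15.9-fold, Dbx1, of an intermediate progenitor domain, 13.5-fold, and Msx1 and Msx2 6.12-fold and 5.37-fold. Of 25 Hox genes 8 fell and none rose (median -0.51). Hoxb9 read 10.995, 9.87 and 10.67 in NP and 7.44, 7.002 and 7.61 in TN, an 8.93-fold fall, and Hoxd4, Hoxb2 and Hoxa3 fell between 3.13-fold and 4.41-fold.

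Genes of retinoic acid handling were among the largest falls. Retinoic acid binds nuclear receptors that sit on paired half-sites, of which AGTTCA is a variant, and it induces its own degrading enzymes. Of 22 such genes 12 fell and 1 rose, with a median of -1.14. Cyp26a1, the main degrading enzyme, read 10.43, 10.19 and 10.01 in NP and 4.20, 4.32 and 4.22 in TN, a difference of -5.97 (SE 0.21, adjusted p = 3.16e-14) or 62.5-fold, the largest fall in the table. Its TN signal was close to that of ES RESTwt, 4.28. Stra8, a retinoic acid target of germ cells, read 9.12, 9.30 and 8.34 and then 3.13, 3.24 and 3.09, a 54.6-fold fall. Crabp2, which carries retinoic acid to the receptor, read 10.81, 11.02 and 10.99 and then 6.34, 5.42 and 6.28, a 30.4-fold fall. Cyp26b1, a second degrading enzyme, fell 19.9-fold. These 4 genes fell in the mixed strain as well, with log2 differences from -6.96 to -6.02.

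The promoter of Cyp26a1 is shown because this gene had the largest fall and its promoter holds such paired half-sites close to the start. The 250 bases before its start (RefSeq, GRCm38.p6, chr19:37697558-37697807, plus strand) contain AGTTCA followed by 5 other bases and a second AGTTCA, read on the opposite strand and set in capitals:
Cyp26a1: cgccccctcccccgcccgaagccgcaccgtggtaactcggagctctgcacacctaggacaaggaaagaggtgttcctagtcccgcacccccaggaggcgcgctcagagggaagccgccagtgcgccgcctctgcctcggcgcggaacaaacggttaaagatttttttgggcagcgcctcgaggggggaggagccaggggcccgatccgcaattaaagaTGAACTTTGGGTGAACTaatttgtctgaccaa
This motif, searched on both strands of the 250 bases before the start, was in 7 of 27025 promoters (0.0259%) and in 1 of the 18 retinoic acid genes with a promoter entry. That gene is Cyp26a1 itself. Only these exact letters were searched, and other variants of the half-site were not. The shares therefore do not tell how common sites for these receptors are. A match describes the letters and is not evidence of binding.

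Genes of cell division fell together. All 47 measured mitosis genes fell, with differences between -3.69 and -1.83 (median -2.88), and 35 of 39 DNA replication genes fell with none higher (median -2.05). The corresponding counts in the mixed strain were 47 of 47 and 36 of 39, where 16.2% of all genes fell. Bub1b, a spindle checkpoint kinase, read 9.25, 9.51 and 9.35 in NP and 6.06, 5.38 and 5.61 in TN, a difference of -3.69 (SE 0.15, adjusted p = 2.32e-13). Ttk, another checkpoint kinase, read 8.002, 8.35 and 8.23 and then 5.07, 4.53 and 4.74. Cdca8, a subunit of the chromosomal passenger complex, read 8.16, 8.48 and 8.54 and then 5.39, 4.54 and 5.09. TN array a was the highest of the neuron arrays in all 3 genes. Kif2c fell 10.3-fold and Mki67, the proliferation marker Ki-67, 7.61-fold. Of the replication genes, Rrm2, a ribonucleotide reductase subunit, fell 10.9-fold, and the helicase subunits Mcm7 and Mcm5 fell 8.75-fold and 7.94-fold. H2ac4, a histone gene of S phase, read 8.72, 8.83 and 8.94 in NP and 3.79, 3.40 and 3.31 in TN, a 40.3-fold fall.

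Cell cycle promoters often carry CCAAT boxes, which the factor NF-Y binds. A CCAAT on either strand (ATTGG on the other) was in the 250 bases before the start of 26 of 39 mitosis genes with an entry (66.7%) and 20 of 34 replication genes (58.8%), against 37.5% of all 27025 promoters. It was in 10 of 18 retinoic acid genes (55.6%), and among lists that rose in 7 of 14 pan-neuronal genes (50%), 12 of 32 synaptic vesicle genes (37.5%), 12 of 43 RE1 target genes (27.9%) and 4 of 20 glutamate genes (20.0%). The box is therefore not particular to genes of cell division. Ttk (chr9:83834439-83834688, plus strand) and Cdca8 (chr4:124936918-124937167, minus strand) are shown as members named above that hold more than 1 box, set in capitals, from RefSeq (GRCm38.p6):
Ttk: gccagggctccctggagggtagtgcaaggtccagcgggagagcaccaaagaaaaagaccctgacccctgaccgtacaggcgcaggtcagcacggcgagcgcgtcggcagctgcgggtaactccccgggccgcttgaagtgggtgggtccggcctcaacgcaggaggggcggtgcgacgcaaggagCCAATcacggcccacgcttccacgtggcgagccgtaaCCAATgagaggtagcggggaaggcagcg
Cdca8: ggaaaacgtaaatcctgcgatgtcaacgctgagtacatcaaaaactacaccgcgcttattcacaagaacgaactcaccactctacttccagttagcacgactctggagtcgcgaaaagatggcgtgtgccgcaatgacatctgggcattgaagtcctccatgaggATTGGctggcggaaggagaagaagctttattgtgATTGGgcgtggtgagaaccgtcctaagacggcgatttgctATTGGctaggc
Ttk held 2 boxes and Cdca8 held 3. The RE1 core, CAGCACC followed by 2 other bases and GGACAG, was in none of the corresponding windows of 43 RE1 target genes and in 10 of all promoters (0.0370%), which says only that these letters are not in this window.

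Most calls among regulators of the cycle were lower. Of 24 cyclin, kinase and inhibitor genes, 14 fell (58.3%, against 9.75% of all genes) and 3 rose (12.5%, near 14.1%). Their median was -1.22. Ccnd1, the G1 cyclin, read 9.85, 9.62 and 9.66 in NP and 7.04, 6.72 and 7.18 in TN, and Cdk2 fell 5.74-fold. Gadd45g, a growth arrest gene of newborn neurons, fell 9.53-fold. Cdk5r1, the neuronal activator of Cdk5, rose 5.05-fold. The related pocket proteins differed: Rbl1 fell 3.37-fold, and Rbl2 differed by 0.96 (adjusted p = 4.81e-07), just under 2-fold.

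Chromatin remodelling complexes of the BAF type exchange subunits when progenitors become neurons. Actl6a, the progenitor actin-like subunit, read 9.24, 9.42 and 9.40 in NP and 7.46, 7.10 and 7.29 in TN, a 4.19-fold fall. Actl6b, its neuronal counterpart, read 6.29, 5.14 and 5.87 and then 8.99, 8.81 and 9.02, a 9.002-fold rise. For the next pair, Ss18 differed by -0.54 and was not called, and neuronal Ss18l1 rose 2.56-fold. In the third group, Phf10 differed by -0.39 and Dpf3 by 0.23, neither called, and Dpf1 rose 2.08-fold, a call that was lost after quantile normalization (difference 0.93) and without NP array b (0.89). The ATPase gene Smarca2 and Smarcd3 rose 3.59-fold and 3.14-fold. Over the 21 BAF genes 5 rose and 2 fell, shares of 23.8% and 9.52% against 14.1% and 9.75% of all genes.

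Among other chromatin regulators, the calls were mostly lower. Of 22 Polycomb subunit genes 8 fell and 1 rose (median -0.68). Ezh2, the Polycomb methyltransferase of dividing cells, read 10.41, 10.34 and 10.46 in NP and 8.02, 7.59 and 7.68 in TN, a 6.24-fold fall, and Ezh1, its relative in resting cells, differed by 0.96 (adjusted p = 1.59e-09), just under 2-fold. Cbx2, Pcgf5 and Jarid2 fell between 2.56-fold and 3.43-fold. Of 20 REST corepressor genes 8 fell and 1 rose. Rcor2, a partner of the demethylase LSD1, read 9.77, 9.36 and 9.55 and then 6.52, 6.38 and 6.61, an 8.30-fold fall. Hdac1, Phf21b and Ctdsp2 fell between 3.32-fold and 3.65-fold. Among 13 DNA methylation genes 2 fell: Uhrf1, which brings Dnmt1 to replicating DNA, by 11.7-fold, and Dnmt3l by 3.01-fold, with TN array a (5.58) close to the lowest NP array (5.70). Without that TN array 4 of the 13 fell, and after quantile normalization 5 did.

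RNA regulators also changed between stages. Of 28 neuronal RNA-binding and splicing genes 16 rose and 3 fell (median 1.21). Rbfox1, a neuronal splicing factor, read 5.71, 4.93 and 5.41 in NP and 9.53, 9.61 and 9.57 in TN. Khdrbs2 and Cpeb3 rose 14.4-fold and 8.96-fold. Ptbp1, the splicing repressor of non-neuronal cells, read 9.89, 10.26 and 10.11 and then 8.06, 8.08 and 8.02, a 4.10-fold fall. Ptbp2, its neural paralog, read 11.17, 11.03 and 11.12 and then 10.81, 10.79 and 10.82, and its difference of -0.30 (adjusted p = 0.00299, not called) turned to 0.23 after quantile normalization. The pair thus has 1 member that fell and 1 with no settled direction. Igf2bp1, an mRNA-binding protein of embryonic cells, fell 11.1-fold, to 7.58, 5.94 and 6.53 in TN. Lin28a and Lin28b, which block let-7 processing, differed by -0.94 and 0.65, and neither was called in the deposited scale; Lin28a was called lower after quantile normalization (-1.15), without NP array a (-1.13) and without TN array a (-1.25).

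MicroRNA genes were measured through probes on their loci, which need not follow the mature RNA. Of 14 such genes 6 rose and 1 fell (median 0.60). Mir137 read 2.52, 2.32 and 2.81 in NP and 5.18, 6.06 and 5.83 in TN, an 8.80-fold rise (adjusted p = 4.76e-12). Mir128-1 read 3.81, 3.37 and 3.68 and then 6.32, 6.15 and 5.89, a 5.66-fold rise. The host transcripts Rian and Meg3, of one imprinted cluster, rose 8.44-fold and 5.12-fold. The copies of miR-9 diverged, as a comparison chosen after their values were seen: Mir9-1 rose by 1.41 on the log2 scale and Mir9-3 fell by 1.21. The mature sequences of Mir137, Mir128-1 and Mir9-1 are shown because the seeds (bases 2 to 8, in capitals) differ, so these 3 members that rose share none (RefSeq, GRCm38.p6):
miR-137-3p: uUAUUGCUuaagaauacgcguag
miR-128-3p: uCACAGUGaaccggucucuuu
miR-9-5p: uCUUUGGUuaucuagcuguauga
The loci listed for the 3 RNAs are on chromosomes 3 and 1, that of miR-9-5p being the copy named Mir9-1. Only 1 locus was kept per mature name, so the sequences do not tell copies of a microRNA apart.

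Of the metabolic lists, cholesterol synthesis had the largest share of calls. Of 15 cholesterol synthesis genes 12 rose and none fell, with differences from 0.82 to 2.16 (median 1.42). Nsdhl read 8.22, 7.98 and 8.42 in NP and 10.19, 10.57 and 10.34 in TN, a 4.46-fold rise. Dhcr7, Sqle and Cyp51, also enzymes of the later steps, rose between 3.75-fold and 3.91-fold. In the mixed strain 9 of the 15 rose and none fell. Of 18 glycolysis genes 4 rose and 7 fell, with a median of -0.89 that was -0.43 after quantile normalization. Slc2a1, the glucose transporter GLUT1, read 11.79, 11.56 and 11.80 and then 8.61, 7.36 and 7.98, a 13.3-fold fall, while the isozyme genes Aldoc, Eno2 and Pfkp rose 15.4-fold, 13.1-fold and 9.66-fold. Of 24 oxidative phosphorylation genes 1 rose, the regulator Ppargc1a, from 3.90, 3.75 and 3.92 to 7.85, 7.70 and 7.83; the other 23 lay between -0.11 and 1.00, and 2 were called in all without NP array c or TN array a.

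Lists of activity and stress genes differed in their calls. Of 21 immediate-early genes 5 rose (23.8%, against 14.1% of all genes) and 2 fell (9.52%, near 9.75%). The count that rose was 3 without NP array b, and after quantile normalization 2 rose and 4 fell. Npas4, an activity-induced factor, read 4.30, 3.796 and 3.88 in NP and 6.83, 6.01 and 5.72 in TN, with TN array a the highest. Nptx2 rose 3.18-fold, and Ier2 and Btg2 fell 3.19-fold and 2.52-fold. None of 16 ER stress genes was called by limma; 4 were higher and 7 lower at the adjusted p alone. The most extreme were Dnajb9 at 0.78 and Atf3, a stress-induced factor, at -0.999, which was called lower after quantile normalization (-1.19). Of 17 p53 and apoptosis genes 5 fell and 1 rose: the survival gene Bcl2 rose 3.55-fold, and the pro-apoptotic Bcl2l11, Bbc3 and Perp fell between 2.36-fold and 3.12-fold. Of 17 interferon and MHC class I genes 5 fell and 1 rose, with Ifitm1, Irf1, Bst2 and Ifitm2 lower by 2.75-fold to 3.08-fold; after quantile normalization 8 fell, and with the mean over its probes Irf1 was not called (-0.68).

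Markers of glia and fibroblasts changed as well. Of 18 astrocyte genes 7 rose (38.9%, against 14.1% of all genes) and 4 fell (22.2%, against 9.75%), with differences from -1.76 to 4.12. Their averaged signal was 5.80 to 5.92 in NP and 6.90 to 7.21 in TN. Gfap, the astrocyte filament, read 3.46, 3.54 and 3.58 in NP and 6.42, 7.25 and 6.79 in TN. Aldh1l1 and Atp1b2 rose 9.14-fold and 17.4-fold. Of 25 fibroblast and matrix genes 12 rose and 2 fell, with differences from -2.50 to 5.48. Their averages were 6.11 to 6.30 in NP and 7.35 to 7.66 in TN. Postn, a matrix protein, read 4.58, 3.89 and 3.94 and then 9.52, 9.87 and 9.45, a 44.5-fold rise. Dcn, Col6a3 and Thbs2 rose 23.5-fold, 13.4-fold and 9.85-fold. The astrocyte and matrix genes named here are among those with the largest differences, and all of them rose. The averaged glial and matrix signals were thus higher in TN, as was that of the pan-neuronal list, and their part in the results was not tested. Of 15 oligodendrocyte genes 2 rose (Olig1 and Olig2), a share of 13.3% near the 14.1% of all genes, and 2 others fell after quantile normalization. In the mixed strain, however, 7 of the 15 rose and none fell, with a median of 0.93 (13.5% of all genes rose there). None of 15 microglia genes was called by limma, with 6 higher and 3 lower at the adjusted p alone: their average stayed at 4.05 to 4.27 over the 6 arrays, with C1qa differing by 0.92 and Csf1r by -0.70.

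Most calls among epithelial, endodermal and vascular genes were lower. Of 24 endoderm and epithelial genes 12 fell and 1 rose (median -0.99). Cldn6, a tight junction gene of early epithelia, read 9.58, 9.85 and 9.60 in NP and 5.18, 4.30 and 4.88 in TN, a 29.7-fold fall. Krt19 read 9.49, 9.69 and 9.33 and then 4.61, 4.79 and 4.49, and its partners Krt8 and Krt18 fell 17.2-fold and 18.5-fold. The averaged signal of the list was 6.70 to 7.18 in NP and 5.35 to 5.495 in TN. Of 15 endothelial genes 4 fell (Cdh5, Tie1, Cldn5 and Eng, by 2.22-fold to 4.998-fold), and of 19 muscle genes 7 fell, among them Tagln and Myl9 by 7.19-fold and 4.97-fold and Tpm2 and Acta2 by 2.87-fold and 2.65-fold. Without NP array b, Eng was not called (-0.90). Of 12 neural crest genes 2 rose and 1 fell (16.7% and 8.33%, near the 14.1% and 9.75% of all genes): the receptor gene Ret rose 5.08-fold, Erbb3 fell 7.12-fold, and Tfap2b rose 2.15-fold, a call lost after quantile normalization (0.999) and without NP array b (0.98). Of 24 pluripotency and germline genes 12 fell and none rose, a count that went from 8 without TN array b to 17 without TN array a. Dazl, Tbx3, Sall4 and Zfp42 fell between 3.29-fold and 4.87-fold; Zfp42, which marks ES cells, averaged 10.89 in ES RESTwt and read 4.89, 6.00 and 5.69 in NP.

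The remaining genes among the 12 largest falls belong to none of these groups. Cpm, a membrane carboxypeptidase, read 8.96, 9.14 and 9.13 in NP and 3.89, 3.37 and 3.90 in TN, a 40.9-fold fall, and the protease inhibitor gene Serpinb9e and Fndc3c1 fell 33.2-fold and 21.7-fold. Xist, which coats and silences the inactive X of female cells, read 7.85, 8.34 and 8.76 in NP and 4.44, 3.69 and 3.39 in TN, a 22.2-fold fall (adjusted p = 2.52e-08). In the RESTko arrays it averaged 7.25 at NP and 9.11 at TN, in ES RESTwt 4.64, and in the mixed strain it differed by -0.35 and was not called. The median difference of genes on the X chromosome, among those above the median signal, was -0.01, beside -0.11 to 0.19 on the autosomes other than chromosome 8.

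Directions were checked in the mixed-strain arrays, where both stages are wildtype. There, 5401 of 18194 genes were called between NP and TN (29.7%). Of the genes called in TN RESThet minus NP RESTwt, 4395 were measured on both platforms, and 95.5% of them had the same sign in the mixed strain. The share was 93.3% for genes that rose and 98.7% for genes that fell; among genes not called it was 65.4%. Of the 4395, 3191 (72.6%) were called in the same direction, and 10 were called in the opposite one. Ece2, a peptidase gene, read 4.96, 4.65 and 4.76 in NP and 7.17, 7.24 and 7.10 in TN but differed by -3.53 in the mixed strain; it has several probes, and with their mean the difference here was 0.21 and not called. Apoa2, Hint3 and Pappa rose by 1.74, 1.55 and 1.27 here and fell by 1.73, 2.28 and 1.24 there. Tln1 fell by 1.15 here and rose by 1.16 there.

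**Figure D3:**
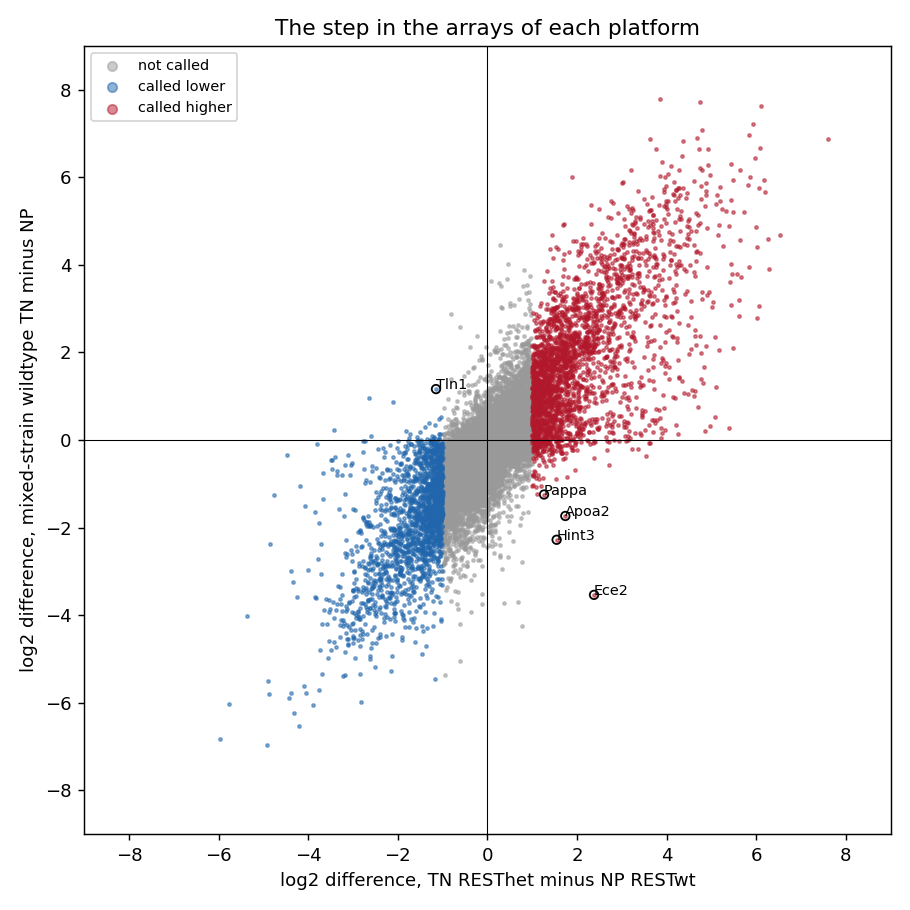
Each point is a gene measured on both platforms, with the log2 difference of TN RESThet minus NP RESTwt on the horizontal axis and of mixed-strain TN minus NP on the vertical axis; genes called in the former are red (higher) or blue (lower), and circles mark 5 genes called in opposite directions. The called genes lie mostly in the quadrants of equal sign, 95.5% of 4395.

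Within the larger table, the RESTko cells give the same step with genotype held constant. The 2 steps share no arrays. Of 19938 genes, 4430 (22.2%) were called between NP and TN in RESTko. The difference between the steps was called for 182 genes (0.913%): 130 (0.652%) were more positive and 52 (0.261%) more negative in the RESThet/RESTwt step. The total was 135 without NP RESTwt array b and 246 without NP RESTwt array a. Mitosis and DNA replication genes had no member among the 182. With 0.913% of all genes called, lists of 47 and 39 genes may hold none by their size alone. The Hox, BAF, Polycomb and cholesterol synthesis lists held none either, so this absence is not particular to cell division. In RESTko all 47 mitosis genes fell, with the same median of -2.88.

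Of the 44 lists, RE1 target genes had the most members with a difference between the steps. Of 59 measured, 50 rose and none fell from NP RESTwt to TN RESThet, with a median of 2.83, against 40 that rose (12.8% of all genes did), 2 that fell (9.46%) and a median of 1.73 in RESTko. The difference between the steps was called more positive for 26 of them, against 0.652% of all genes; the count was 21 to 34 when single arrays were left out. The list was assembled from genes known as REST targets and with earlier results of these arrays known, so the count describes it and is not independent evidence. The averaged signal of the 59 genes shows where the steps part: it was 5.58 to 6.09 in NP RESTwt, 6.85 to 6.98 in NP RESTko, 8.49 to 8.53 in TN RESThet and 8.45 to 8.69 in TN RESTko. The groups overlapped at TN and were separate at NP. The pan-neuronal average had the same pattern, at 7.56 to 8.21 in NP RESTwt, 8.50 to 8.83 in NP RESTko, 10.15 to 10.27 in TN RESThet and 10.115 to 10.24 in TN RESTko. Of 25 pan-neuronal genes, 24 rose here and 14 in RESTko, and 9 had a more positive step here, or 4 without NP RESTwt array b or NP RESTko array a. Of 30 neuropeptide and dense-core granule genes 8 had a more positive step here. Such a pattern was thus also present in lists other than RE1 target genes, but members shared between these lists were not counted.

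Single members showed the same arrangement. Cplx1 averaged 5.14 in NP RESTwt and 7.55 in NP RESTko, but 10.54 and 10.51 in the neurons, so that its step was larger by 2.43 (adjusted p = 9.4e-10). Syt4, a synaptotagmin, went from 5.42 to 10.28 here and from 7.88 to 10.52 in RESTko. Nrsn1, a neuronal vesicle protein gene, went from 4.54 to 8.996 here and from 7.02 to 9.02 in RESTko. Nmnat2, an axon survival factor, had a step larger by 2.22 (adjusted p = 1.51e-07). In these 4 genes the progenitors differed between genotypes and the neurons ended close together. Cntnap5a, which is not on that list, was of another kind: its means were 3.10 and 3.10 in the progenitors and 8.73 and 5.80 in the neurons. Grb10, an imprinted growth regulator, averaged 7.80 in NP RESTwt and 10.23 in NP RESTko, with 8.49 and 8.47 in the neurons. It therefore differed by 0.69 here (not called), by -1.76 in RESTko and by -3.70 in the mixed strain.

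**Figure D4:**
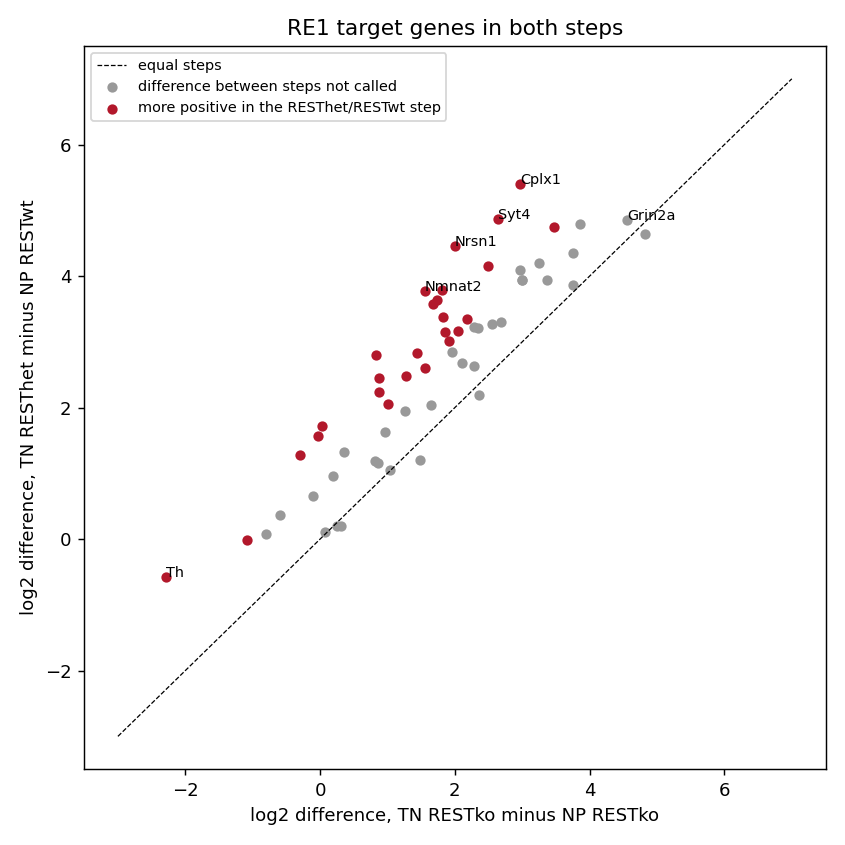
The log2 difference of TN RESThet minus NP RESTwt (vertical axis) is plotted against that of TN RESTko minus NP RESTko (horizontal axis) for 59 RE1 target genes, with the dashed line at equal steps. The 26 genes whose difference between steps was called, in red, lie above the line, led by Cplx1, Nrsn1, Nmnat2 and Syt4, and Grin2a lies near it.

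Among genes with a more negative step here, Xist had the largest difference, -6.34 (adjusted p = 8.91e-06). Cxcl15, a chemokine gene, averaged 7.005 in NP RESTwt, 4.84 in NP RESTko and under 3 in both neuron groups (2.74 and 2.93). Sprr1a and Adh1 fell by 1.597 and 2.49 here and differed by 0.65 and -0.54 in RESTko. Mal2, a membrane traffic protein gene, rose by 1.09 here (0.95 and not called after quantile normalization, 0.995 and not called without NP array b) and by 3.06 in RESTko. Of 24 endoderm and epithelial genes 5 also had a more negative step here, against 0.261% of all genes, and 1 a more positive one. Cldn6 (-1.55), Krt19 (-1.45) and Krt18 (-1.14) were among the 5. The count of 5 was 2 without NP RESTwt array b, TN RESThet array c, NP RESTko array c or TN RESTko array b, was 3 without TN RESThet array b, NP RESTko array a or b or TN RESTko array c, and was 7 without TN RESTko array a.

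Chromosome 8 stood apart from the others. Among genes above the median signal, its 567 genes had a median difference of -0.30 between NP RESTwt and TN RESThet, while the other chromosomes ranged from -0.11 to 0.19. Of these 567 genes, 20.6% fell and 10.8% rose. The median for chromosome 8 was -0.10 in the RESTko step and -0.14 in the mixed strain. Between the progenitor groups, RESTko minus RESTwt, it was -0.29, and between the neuron groups, RESTko minus RESThet, it was -0.06. Both comparisons with medians near -0.30 contain the NP RESTwt arrays, and the part of this shift in the calls of single genes on this chromosome was not tested. Without the genes of chromosome 8, 4518 genes were called in place of 4760.

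**Figure D5:**
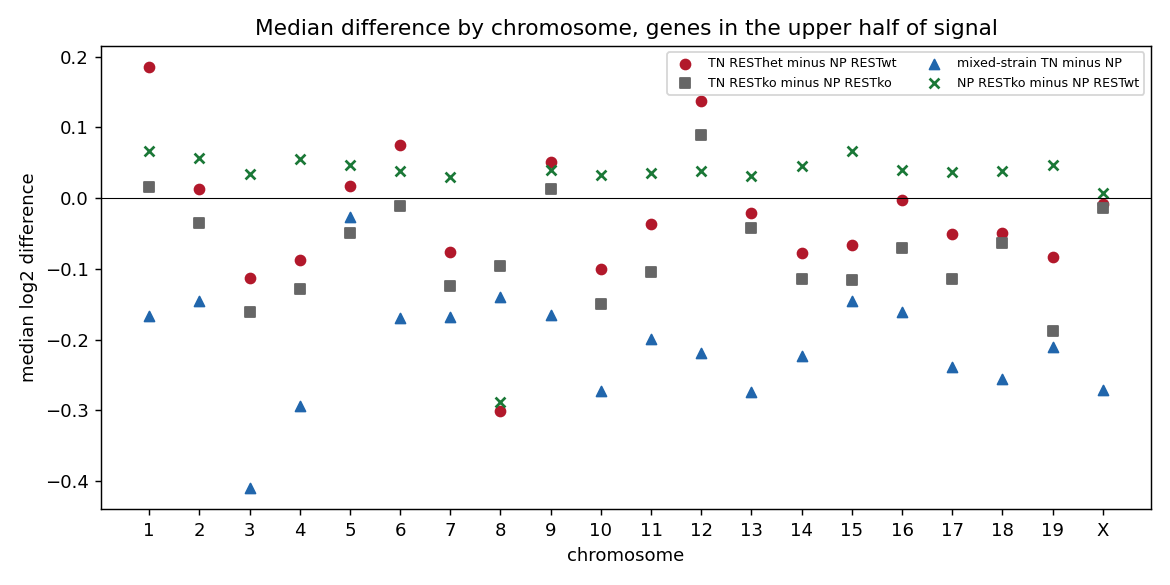
The median log2 difference over genes above the median signal (vertical axis) is plotted for each chromosome (horizontal axis) in 4 comparisons, given by the symbols. Chromosome 8 lies at -0.30 in TN RESThet minus NP RESTwt and at -0.29 in NP RESTko minus NP RESTwt, and at -0.10 in the RESTko step.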

How the data were processed

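Affymetrix arrays measured RNA in 24 samples: 18 on the larger table's platform and 6 on the other. The submitters' processing notes name oligo 1.14.0; for background correction and normalization, no method is given in the sources used here. Values are log2 signals as deposited by the authors, 1 column per array, with array medians of 5.19 to 5.26 at NP and 5.41 to 5.49 at TN. The number of arrays limits the precision.

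Of 35556 probes in the larger table, 21789 had 1 gene symbol in the platform annotation, 1621 several and 12146 none; in the smaller one 34958 of 45101 had 1. Symbols were updated by gene number to GRCm38.p6, and the brightest probe was kept for each of 19938 and 18194 genes. limma 3.58.1 (R 4.3.3) fitted group means over all 18 arrays, or over the 6, with a two-sided moderated test and Benjamini-Hochberg adjustment. Calls needed an adjusted p under 0.05 and a difference of at least 1. The fit was tested on simulated data. Promoter and microRNA sequences came from RefSeq tables.

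The text names Rest and Xist, the 12 largest called changes each way (predicted genes, chemoreceptors and small RNAs excepted), at most 4 called members from each of 44 lists (at most 2 uncalled ones where none was called), the 5 largest differences between steps each way, up to 4 genes each way that went opposite ways in the mixed strain, and pairs of paralogs. Members and lists were chosen with earlier results of these data known. Replicate letters did not pair the arrays: same-letter deviations of NP and TN correlated at -0.10, -0.01 and 0.02. Alternatives changed the call rule, scaling, dim-gene filter, probe choice, arrays in the fit, replicate block and array weights, and left out single arrays; 3 were added after seeing the data: leaving out chromosome 8, fitting only the 12 NP and TN arrays, and counting list members without single arrays.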

Additional observations from a re-analysis of the deposited data

Results flagged for a closer look

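A difference between the RESThet/RESTwt step and the RESTko step passed limma's test of that difference for these named genes. Values are the former step minus the latter on the log2 scale, from 3 arrays a group. The more positive steps were 2.93 for Cntnap5a, 2.45 for Nrsn1, 2.45 for Grb10, 2.43 for Cplx1, 2.22 for Nmnat2 and 2.22 for Syt4. Smaller ones were 1.65 for Glra2, 1.58 for Slc12a5, 1.56 for Cacna2d1, 1.56 for Apoa2, 1.27 for Scn3b, 1.22 for Crabp2, 1.09 for Ache and 1.00 for Eno2. The more negative steps were led by Xist at -6.34, followed by Cxcl15 at -2.35, Sprr1a at -2.25, Mal2 at -1.96 and Adh1 at -1.94. Markers of other cell types among them were Cldn6 at -1.55, Dcn at -1.49, Krt19 at -1.45, Tagln at -1.24, Krt18 at -1.14 and Cdh5 at -1.03.

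Named genes whose mixed-strain step was opposite to the one in the larger table were Ece2 at -3.53, Hint3 at -2.28, Apoa2 at -1.73, Pappa at -1.24 and Tln1 at 1.16 in the mixed strain. The difference between the platforms was not tested.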

How the results depend on the processing

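The 4760 calls became 14570 (8616 higher, 5954 lower) at the adjusted p alone, where Rest passed at -0.45, and 8012 (4674 and 3338) with each of 35556 probes on its own. At the adjusted p alone the mixed strain had 9242 calls (3954 and 5288), the difference between steps 780 (500 and 280), and 80.2% of called genes kept their sign in the mixed strain. After quantile normalization that share was 96.7%. The median of chromosome 8 was then -0.47, and the other chromosomes ranged from -0.26 to 0.09. With this scaling, 5 list medians turned negative. They were -0.0417 for cholinergic and monoamine genes, -0.18 for neuronal transcription factors, -0.0757 for immediate-early genes, -0.0736 for ER stress genes and -0.0729 for microglia genes. The median of all genes moved as well, from 0.14 to -0.07, and the cause of the list changes was not tested. Leaving out single arrays gave 4637 to 4926 calls (2742 to 2897 higher, 1895 to 2029 lower), 5328 to 5459 in the mixed strain (2390 to 2502, 2895 to 3016) and 135 to 246 between steps (95 to 174, 38 to 72), with Rest at -0.47 to -0.44 and Xist at -4.77 to -4.25. The replicate block gave 4761 calls over 18 arrays, 4755 over 6, 5405 in the mixed strain and 183 between steps, and since the letters do not pair the arrays it is given only here. Of 193 named genes other than Rest and Xist, 188 had a value in all 16 alternatives, and 172 of these kept direction and side of the threshold in each; the other 5 were left out by the filter on dim genes. Signals near background limit the folds of dim genes, and the design cannot separate stage from genotype.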
